A study of Mus musculus with 12 samples.

Results

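The genes of the cytosolic ribosomal proteins were measured in whole kidneys from young adult male C57BL/6J mice. The members were the genes whose symbols begin with Rps, Rpl or Rplp in the usual numbering, together with Rpsa, that reached a mean of 10 CPM over all kidneys. CPM is the count of a gene divided by the total of its library and scaled to counts per 1000000. Of 23420 genes in the count table, 84 carried such a symbol and 68 were members, 27 of the small (40S) subunit and 41 of the large (60S) subunit. All 68 passed the filter on low counts, with at least 33 counts in every kidney. The other 16 symbols are accounted for after the sequences.

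The series holds 12 kidneys, 4 per group. The control kidneys were taken at nephrectomy as normal tissue. The other 8 kidneys had 20 min of clamping of the renal pedicle and were taken after 24 h, and the labels repeat this treatment text for the control kidneys. Their titles and group field contradict each other on anaesthesia. Ischemia set A is titled anaesthetised and has the group field conscious, and ischemia set B is titled conscious and has the group field anaesthetised, so no direction is assigned to anaesthesia here. Nothing in the labels ties equal replicate numbers to a shared animal or day. The labels name no animals, and whether the controls came from the same mice as the ischemic kidneys, or whether the ischemic mice had lost their other kidney, is not given in the sources used here. The study describes surgery to place the clamp before the ischemia. Effects of surgery and of ischemia therefore cannot be told apart in the comparisons with the controls. The p-values measure the spread between these samples. Library totals were 20364386 to 39155807 counts in the controls, 16814285 to 44793350 in set A, and in set B from 15367342 to 29905140.

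A cytosolic ribosome consists of a small subunit, which reads the mRNA, and a large subunit, which joins amino acids. Each ribosomal protein is normally present as a single copy per ribosome, apart from the acidic stalk proteins, and surplus free protein is degraded. Their mRNAs are among the most abundant of growing cells. Many begin with a cytosine followed by a run of pyrimidines, the 5′ terminal oligopyrimidine (TOP) tract, through which mTORC1 and the RNA-binding protein Larp1 control translation. The kidney tubule depends on protein synthesis to rebuild its epithelium after ischemia. mRNA levels, as counted here, do not measure translation.

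The tract was searched for at the annotated starts, which are not mapped starts. RefSeq promoter sequences (GRCm38.p6, the same assembly as mm10) were at hand for 49 of the 68 members, with 56 starts in all. The lines below give 12 bases before and 18 bases from the annotated start on the strand of the gene, with the tract in capitals. The tract was defined as a C followed by at least 4 bases that are each C or T, beginning within 10 bases of the start. The first 6 genes have it at the first annotated base, and Rpl12 has it at the third. Rpsa, Rplp0 and Rpl11, which are among the most abundant members, have none in this window. This does not show that their mRNAs lack a tract.
Rps6, chr4:86857350-86857379, minus strand: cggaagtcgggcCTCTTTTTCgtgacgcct
Rpl15, chr14:18270969-18270998, minus strand: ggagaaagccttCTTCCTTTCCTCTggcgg
Rps18, chr17:33955648-33955677, minus strand: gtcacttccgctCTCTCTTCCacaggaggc
Rplp2, chr7:141447639-141447668, plus strand: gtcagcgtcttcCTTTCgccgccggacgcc
Rps10, chr17:27635227-27635256, minus strand: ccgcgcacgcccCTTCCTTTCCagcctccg
Rpl14, chr9:120571505-120571534, plus strand: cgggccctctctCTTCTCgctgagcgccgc
Rpl12, chr2:32961700-32961729, plus strand: ggagcaggatccgtCTTTTCggctttcggc
Rpsa, chr9:120127754-120127783, plus strand: ggttatttaaggacgtcatttccggccgcc
Rplp0, chr5:115559455-115559484, plus strand: ttcgggtttcgaggaccgcctggttctcct
Rpl11, chr4:136053376-136053405, minus strand: acccataaggccacggggccggaagtctcc

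A tract was found at 30 of the 56 member starts (53.6%), against 30.7% of all 32851 promoters in the table. With a window of 5 bases the shares were 42.9% and 18.3%, and with 20 bases they were 75% and 49.4%. The tract began at the first base in 9 starts. The motif CCGGAAG, which ETS factors bind, was in 33.9% of the 300-base member promoters and in 8.86% of all promoters, counting both strands. The motif AAGATGG, the core of the YY1 motif, was in 14.3% and 6.34%. These are matches of letters in a window and not mapped starts or binding sites.

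The 16 symbols outside the members fall into 6 genes with no count in any kidney and 10 with a mean below 10 CPM. Rpl26, Rpl30, Rpl34 and Rps27, core ribosomal proteins that every cell uses, were listed at 0 in all 12 kidneys, as were the paralogs Rpl10l and Rpl39l. These zeros cannot be read as absence of the mRNA. The members just inside the threshold were Rps23 (10.4 CPM) and Rps26 (12.3 CPM), and the genes just outside it were Rpl6 (9.98 CPM) and Rps25 (4.59 CPM). Rpl6 read 4.22 to 8.50 CPM in the controls and 9.96 to 13.5 CPM in set A, without overlap. Rps26 read 23.4, 4.11, 3.36 and 9.36 CPM in the controls, a coefficient of variation of 92.4%, the highest of the members in that group.

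Levels per length differed by a factor of 400.5 between the highest and the lowest member, with a median of 182 CPM per kilobase of transcript. Rpl19 stood highest (3301 CPM per kilobase), and Rpl32 (2491) was also near the top. Rps15a (8.24), Rps23 (11.1) and Rps20 (11.3) stood lowest. The transcripts that the GENCODE annotation gives for Rps15a and Rps20 are long for this family (5130 and 3706 bases, against a median of 800.5), which lowers their value per kilobase.

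Ribosomal protein genes have many processed copies in the mouse genome, and reads from identical stretches cannot be assigned to a gene. Of the 100-base windows of each member's transcript, a median of 62.5% were found in the transcript of no other annotated gene, from 8.43% in Rpl10 to 100% in 5 members (among them Rpl22, Rpl32, Rps21 and Rps3). In 27 members fewer than 50% of windows were found in no other gene. How the counting treated reads that map to several places is not given in the sources used here, so levels of single members are uncertain to that extent. Across the 68 members the Pearson correlation between the share of such windows and the log2 level per kilobase was -0.20, given as a description of genes counted in the same libraries.

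After ischemia the ribosomal protein genes took a larger share of the counts in every kidney. In the 4 control kidneys they made up 2.05%, 2.12%, 2.04% and 1.95% of all counts. Set A reached 2.93%, 3.15%, 3.15% and 2.75%, and set B reached 3.10%, 3.02%, 3.19% and 3.07%. No ischemic kidney overlapped a control kidney, and the lowest ischemic share belonged to replicate 4 of set A. The mean share was 2.04% ± 0.068 (SD, n = 4) in the controls, 2.99% ± 0.192 for set A and 3.09% ± 0.0691 for set B. The Wilson 95% interval for replicate 4 of set A ran from 2.74% to 2.76%, and like all such intervals it covers counting error only. Both subunits took part, with 40S genes going from 0.784% of counts in the controls to 1.13% and 1.17%, and 60S genes from 1.26% to 1.87% and 1.92%. The ratio of 60S to 40S counts was 1.60 ± 0.0404 in the controls, 1.65 ± 0.0663 for set A and 1.64 ± 0.0451 for set B, with overlapping ranges.

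**Figure D1:**
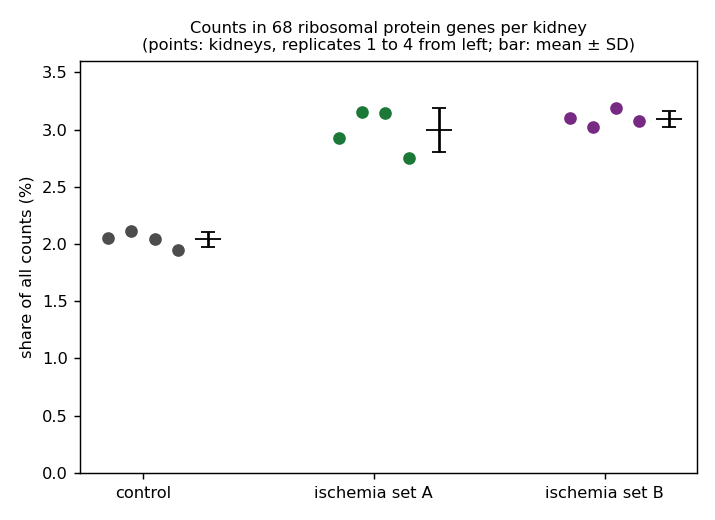
Share of all counts (%, vertical axis from 0) that fell in the 68 ribosomal protein genes, by group; points are kidneys and bars are the mean ± SD (n = 4). The 4 control kidneys lie between 1.95% and 2.12% and the 8 ischemic kidneys between 2.75% and 3.19%.

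Against the controls, 36 of the 68 members rose in set A and 42 rose in set B, and 0 fell in either. Genes were called by the quasi-likelihood test of edgeR at a p below 0.05 after Benjamini-Hochberg adjustment over all 11664 genes tested. Among all genes tested, 10.5% were higher and 11.7% lower in set A, and 10.9% higher and 11.9% lower in set B. Without adjustment, p was below 0.05 in 49 members for set A and 53 for set B, again with 0 of them lower, against 31.5% and 32.7% of all genes tested in either direction. DESeq2 and limma-trend also called 0 members lower. The fitted log2 fold change was above 0 for 68 of 68 members in set A and for 66 of 68 in set B. Its median over the members was 0.48 for set A and 0.52 for set B, a fold of 1.40 and 1.44, beside a median of -0.02 over all genes tested in both sets. Both comparisons use the same 4 control kidneys, so the sets are not independent of each other.

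The kidneys of the groups did not overlap, with the ischemic kidneys higher, for 39 members for set A and 46 for set B, against 13.2% and 12.1% of all genes tested. They lay lower for 0 members in either set, against 15.2% and 14.7% of all genes. For 35 members all 8 ischemic kidneys lay above all 4 control kidneys, against 8.86% of all genes tested. The members called higher in both sets numbered 34, against 9.07% of all genes tested, with 2 called in set A alone, 8 in set B alone and 24 in neither. Whether a member passed the threshold went with its level. Of the 9 members with a mean of at least 1000 CPM, 8 were called in both sets, as were 23 of the 34 between 100 and 1000 CPM and 3 of the 25 below 100 CPM. The median fitted change did not differ in the same way: the 34 more abundant members had medians of 0.48 and 0.53 and the 34 less abundant members 0.48 and 0.52, while the median standard error in set A was 0.116 and 0.216. The 40S members had medians of 0.49 and 0.52 and the 60S members 0.48 and 0.53.

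**Figure D2:**
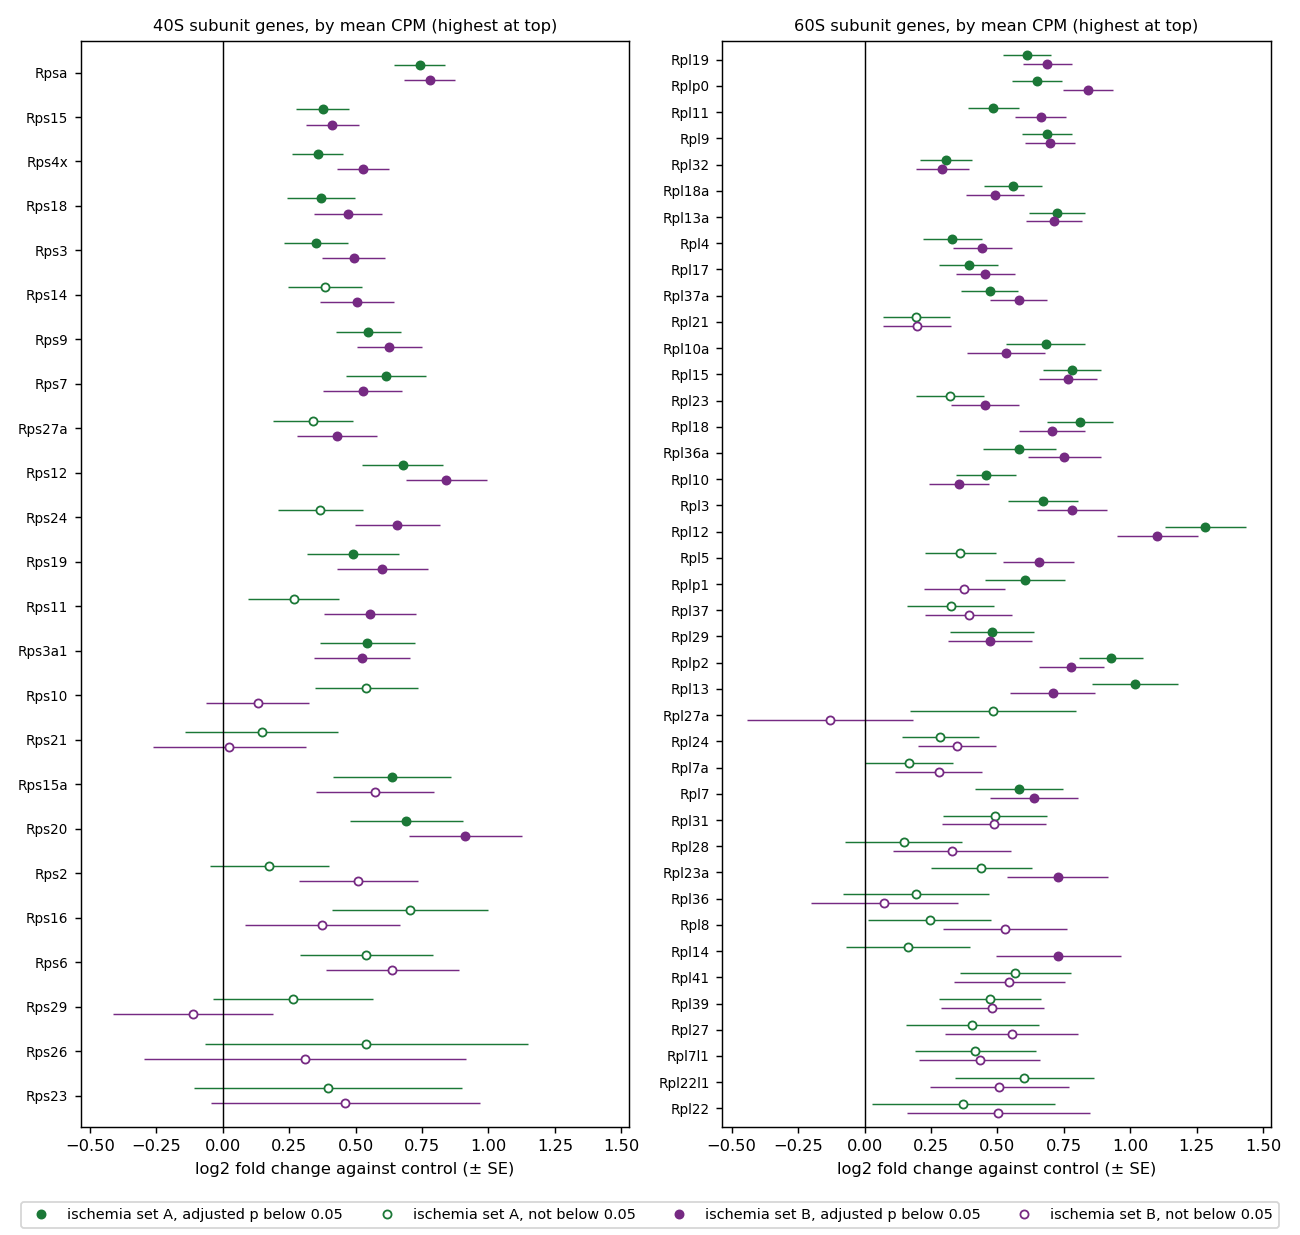
Fitted log2 fold change against control (horizontal axis) with its standard error for 65 of the 68 members, ordered by mean CPM within the 40S and the 60S subunit; green is set A, purple is set B, and filled points have an adjusted p below 0.05. All points of set A lie above 0, and in set B only Rpl27a (-0.13) and Rps29 (-0.11) lie below it; open points gather among the less abundant genes toward the bottom.

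**Figure D3:**
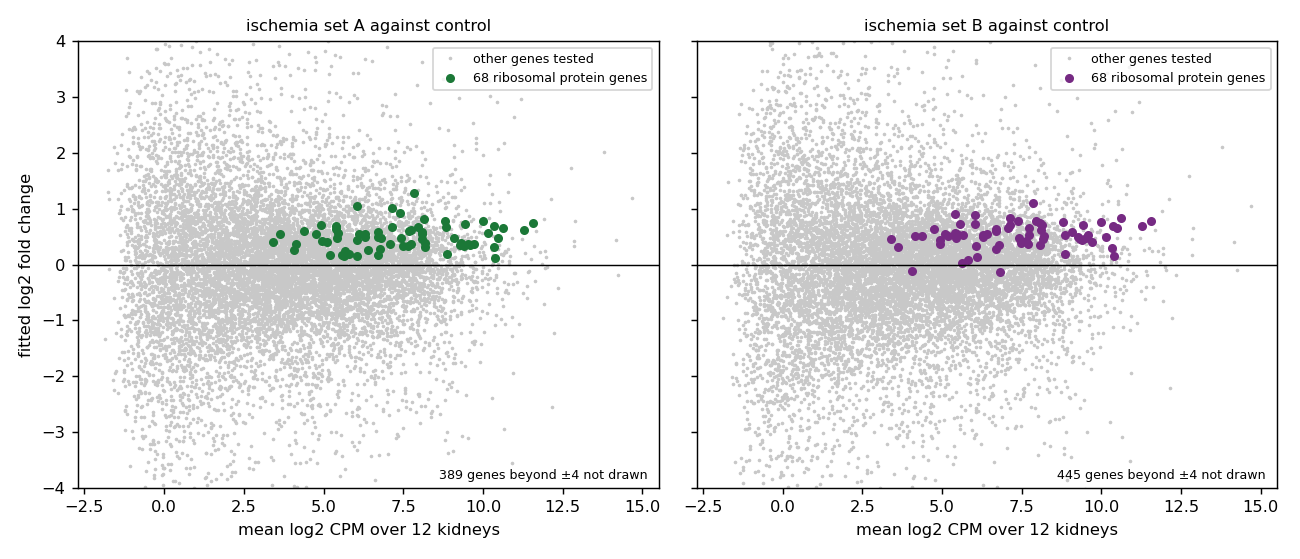
Fitted log2 fold change (vertical axis) against mean log2 CPM over the 12 kidneys for all genes tested (grey) and the 68 members (colour), for each set against control; the 389 and 445 genes beyond ±4 are not drawn. The members form a narrow band above 0 with medians of 0.48 and 0.52, while the other genes spread on both sides of 0.

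Over all 6331 tested genes with a mean of at least 10 CPM the median log2 fold change was -0.005 for set A and 0.007 for set B, and 17.2% and 17.5% of them were called higher. Over the 4647 of these with a transcript length within the members' range, 383 to 5130 bases, the medians were -0.01 and -0.006. Across members, the Pearson correlation of the log2 fold change with log2 CPM was 0.14 for set A and 0.22 for set B, and with transcript length 0.14 and 0.23. The 34 members with more windows of their own had medians of 0.40 and 0.50, and the 34 with fewer had 0.54 and 0.54. Members with a tract near an annotated start had medians of 0.54 and 0.53 over 29 genes, and members without one had 0.44 and 0.53 over 20 genes.

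Among the 40S proteins, Rpsa, the laminin receptor precursor at the surface of the small subunit (chromosome 9, 120127689 to 120132369), was the member with the most counts. Its CPM was 2073, 2281, 1940.3 and 1889.7 in the control kidneys, 3211, 3921, 3579 and 3205 in set A, and 3607, 3339.8, 3541 and 3792 in set B. Every ischemic kidney exceeded every control kidney by a wide margin. The log2 fold change was 0.74 ± 0.10 (SE) in set A (edgeR adjusted p = 8.0e-06) and 0.78 ± 0.10 in set B (adjusted p = 4.4e-06).

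Rps20 of the small subunit head (chromosome 4, 3831334 to 3835665) was among the 4 largest rises in set B, with a log2 fold change of 0.91 ± 0.21 (SE; edgeR adjusted p = 0.0032) and 0.69 ± 0.21 in set A (adjusted p = 0.022). Rps12 of the beak of the small subunit (chromosome 10, 23785183 to 23787275) rose by 0.68 ± 0.15 for set A and 0.84 ± 0.15 for set B on the log2 scale (edgeR adjusted p = 0.0025 and 0.00036), but only 11.1% of its windows were its own.

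Rps6, the target of the S6 kinases and the classical readout of mTORC1, had few counts for a ribosomal protein. It read 27.3, 13.1, 20.0 and 19.2 CPM in the control kidneys, 35.4, 28.7, 29.0 and 24.1 in set A, and 28.6, 29.1, 29.2 and 38.7 in set B. Its log2 fold changes of 0.54 ± 0.25 and 0.64 ± 0.25 missed the threshold (adjusted p = 0.14 and 0.077), and only 16.4% of its windows were its own.

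Rps3, which lines the entry of the mRNA channel and whose windows were all its own, had 498 ± 66.3 CPM (SD, n = 4) in the controls, 646 ± 62.3 in set A and between 668 and 783 in the 4 kidneys of set B. It rose in both sets, by 0.35 ± 0.12 and 0.49 ± 0.12 on the log2 scale (SE; edgeR adjusted p = 0.042 and 0.0048), although 1 control kidney (595 CPM) lay within the range of set A. Rps19, the protein most often mutated in Diamond-Blackfan anaemia, had 78.4 ± 11.3, 112 ± 16.1 and 121 ± 24.8 CPM in the controls, set A and set B. Its log2 fold changes were 0.49 ± 0.17 and 0.60 ± 0.17 (edgeR adjusted p = 0.047 and 0.015). The call for Rps3 in set A held in 12 of 22 alternative analyses, and that for Rps19 in set A also in 12. Rps27a, made as a fusion with ubiquitin, rose in set B (0.43 ± 0.15, adjusted p = 0.046, kept in 13 of 22 alternatives) and had 0.34 ± 0.15 in set A (adjusted p = 0.12).

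In the 60S subunit the proteins of the stalk and its base differed among themselves in size of change. The stalk, formed by Rplp0 with the acidic proteins Rplp1 and Rplp2 and attached beside Rpl12, recruits the elongation factors. Rpl12 (chromosome 2, 32961559 to 32965345) had the largest log2 fold change of all 68 members in both sets. Its CPM was 125, 128, 108 and 126 in the control kidneys, 329.9, 355, 319 and 203 in set A, and 276, 252, 299 and 237 in set B. The lowest ischemic kidney, replicate 4 of set A, still lay above every control. The log2 fold changes were 1.28 ± 0.15 for set A and 1.10 ± 0.15 for set B (SE; edgeR adjusted p = 2.9e-06 and 1.8e-05).

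Rplp2 (chromosome 7, 141447370 to 141451585) read 116, 106, 110.0 and 101 CPM in the control kidneys, 224, 211, 199 and 202 in set A, and 167, 175, 209 and 204 in set B. It rose by 0.93 ± 0.12 and 0.78 ± 0.12 on the log2 scale (SE; edgeR adjusted p = 9.5e-06 and 7.2e-05). Rplp0, the scaffold of the stalk, had 1078 ± 37.2 CPM (SD, n = 4) in the controls, 1718 ± 55.0 for set A and 1964 ± 218 for set B, with log2 fold changes of 0.65 ± 0.09 and 0.84 ± 0.09 (adjusted p = 3.2e-05 and 1.5e-06). Rplp1 rose in set A (0.60 ± 0.15, adjusted p = 0.0060) and had 0.38 ± 0.15 in set B (adjusted p = 0.085). Its control kidneys ran from 127 to 199 CPM and overlapped both sets.

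Rpl5 and Rpl11 bind 5S rRNA before they join the large subunit, and in free form they can hold the p53 ligase Mdm2. Rpl11 rose in both sets, from 1064 ± 70.6 CPM (SD, n = 4) to 1515 ± 98.9 and 1711 ± 81.7, with log2 fold changes of 0.49 ± 0.10 and 0.66 ± 0.10 (SE; edgeR adjusted p = 0.00078 and 3.2e-05). Rpl5 read 172, 169, 179 and 136 CPM in the control kidneys, 203, 242, 209.7 and 203 in set A, and 218, 245, 298 and 292 in set B. All 8 ischemic kidneys exceeded all controls. It rose in set B (0.66 ± 0.13, edgeR adjusted p = 0.0011), while 0.36 ± 0.13 in set A just missed the threshold (adjusted p = 0.060).

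Rpl13 (chromosome 8, 123102350 to 123105244) was among the 4 largest rises in set A. Its CPM went from 89.3 ± 13.3 (SD, n = 4) to 184 ± 29.3 for set A and 148 ± 19.3 for set B. The log2 fold changes were 1.02 ± 0.16 and 0.71 ± 0.16 (SE, edgeR adjusted p = 8.0e-05 and 0.0026), but only 21.1% of its windows were its own. Rpl19, the 60S member with the most counts, rose by 0.61 ± 0.09 and 0.69 ± 0.09 on the log2 scale (adjusted p = 4.5e-05 and 1.2e-05). Rpl10, which joins the large subunit last and is needed for subunit joining, rose by 0.46 ± 0.11 and 0.36 ± 0.11 (adjusted p = 0.0050 and 0.026). The call in set B held in 16 of 22 alternatives. Of the windows of Rpl10, 8.43% were its own, the lowest share of the members.

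Rpl32 (chromosome 6, 115805505 to 115808747) matters beyond its role in the ribosome, since the study used it as a reference gene for PCR. It had the tightest controls of all members, 1121, 1096, 1082 and 1111 CPM, a coefficient of variation of 1.57%. Set A read 1395, 1504, 1423 and 1231 CPM and set B read 1311, 1464, 1466 and 1249 CPM. All ischemic kidneys lay above all controls. The log2 fold changes were 0.31 ± 0.10 and 0.29 ± 0.10 (SE; edgeR adjusted p = 0.030 and 0.037), and these calls held in 13 and 12 of 22 alternatives. Of the other reference genes, Gapdh (-0.16 and -0.26), Hprt (0.25 and 0.39) and Gusb (0.04 and 1.13) passed the threshold in neither set. Gusb had a mean of 0.976 CPM in the controls.

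**Figure D4:**
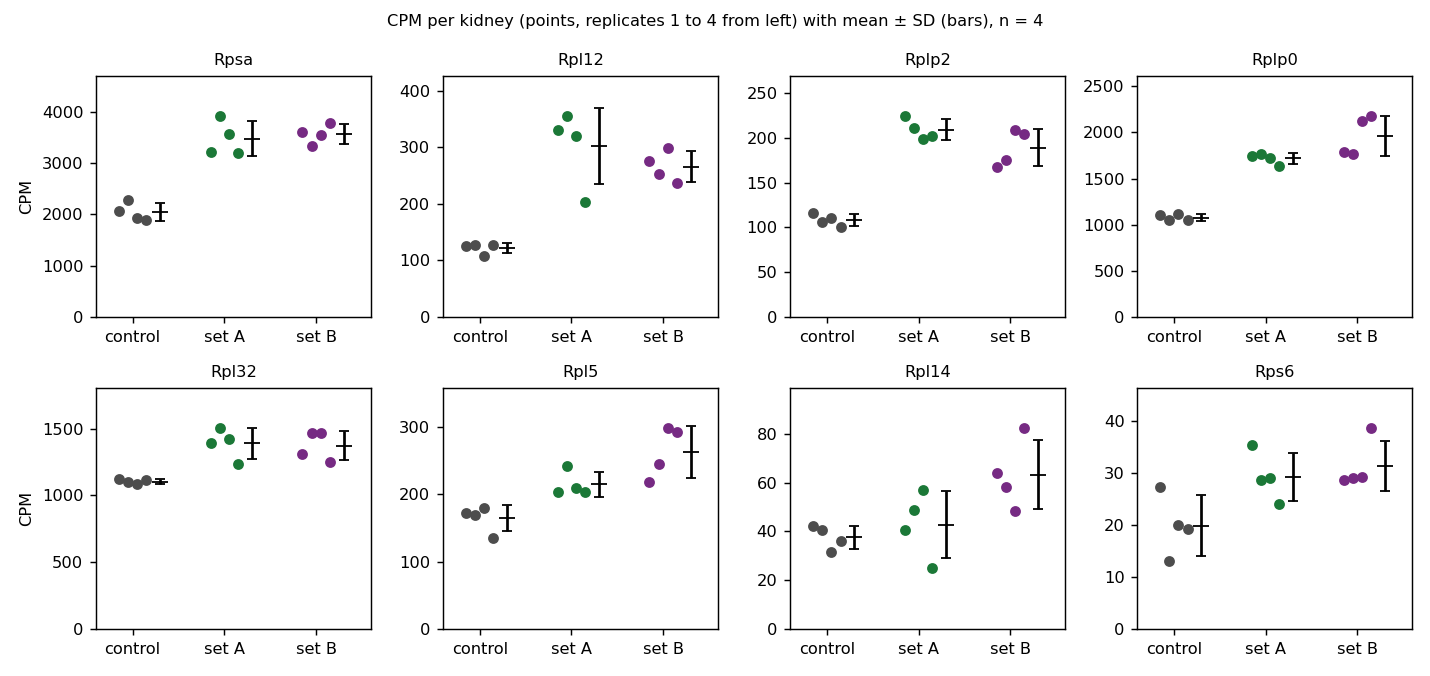
CPM (vertical axes from 0) of 8 members in each kidney by group, with the mean ± SD (n = 4) as bars. Rpsa, Rpl12, Rplp2, Rplp0, Rpl32 and Rpl5 show 8 ischemic kidneys above all controls, while Rpl14 and Rps6 show groups that overlap in set A.

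No member passed the threshold between set B and set A. Of the 68 members 0 were called higher and 0 lower in set B against set A, where 0.00857% of all genes tested were called higher and 0% lower. DESeq2 and limma-trend also called 0 members. The median log2 difference, set B minus set A, was 0.05 over the members and -0.006 over all genes tested. The unadjusted p was below 0.05 for 3 members (5 with DESeq2 and 3 with limma-trend), against 5.03% of all genes tested, so their share is near the background. In the edgeR fit these were Rpl14 (0.57 ± 0.23 SE), Rpl5 (0.29 ± 0.13) and Rps10 (-0.41 ± 0.19), with an adjusted p of 0.94, 0.98 and 0.98. Rpl14 read 40.6, 48.9, 56.8 and 24.9 CPM in set A and 64.0, 58.1, 48.5 and 82.4 in set B, so the sets overlapped. Against the controls, at 42.2, 40.4, 31.4 and 36.2 CPM, Rpl14 rose in set B (0.73 ± 0.23, edgeR adjusted p = 0.030). That call held in 16 of 22 alternatives. In set A Rpl14 had 0.16 ± 0.23 (edgeR adjusted p = 0.74). Rps10 read 89.5, 101, 90.8 and 60.9 in set A and 71.1, 53.5, 76.0 and 56.3 in set B. These values do not show that the sets are alike. The 95% interval of the difference lay within 0.5 of 0 on the log2 scale for 43 members, and its median half-width was 0.32. The kidneys of the sets did not overlap, with set B higher, for 4 members (Rplp0, Rps4x, Rps24 and Rpl23a), beside 1.4% of all genes tested, and with set B lower for 0 members, beside 1.25%. These 4 were named after their values were seen. Groups that do not overlap fix the two-sided exact permutation p at 0.0286, the smallest that 4 kidneys against 4 allow. It therefore adds no support to this choice. The edgeR adjusted p was 0.990 for Rplp0 and 0.9997 for Rps4x, Rps24 and Rpl23a.

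Within groups the kidneys differed in how high the members stood together. Replicate 4 of set A was the lowest kidney of its set for 42 of the 68 members and replicate 4 of the controls was the lowest for 31. The median member stood 0.32 above its control mean (log2) in replicate 4 of set A, and between 0.42 and 0.60 in the other kidneys of that set. In set B the corresponding values were 0.53 to 0.59. The median coefficient of variation over members was 11.6% in the controls, 15.8% for set A and 10.9% for set B. After the group means were removed, the first principal component held 27.6% of the variance of the members' log2 CPM over the 12 kidneys, and the mean correlation between pairs of members was 0.18.

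**Figure D5:**
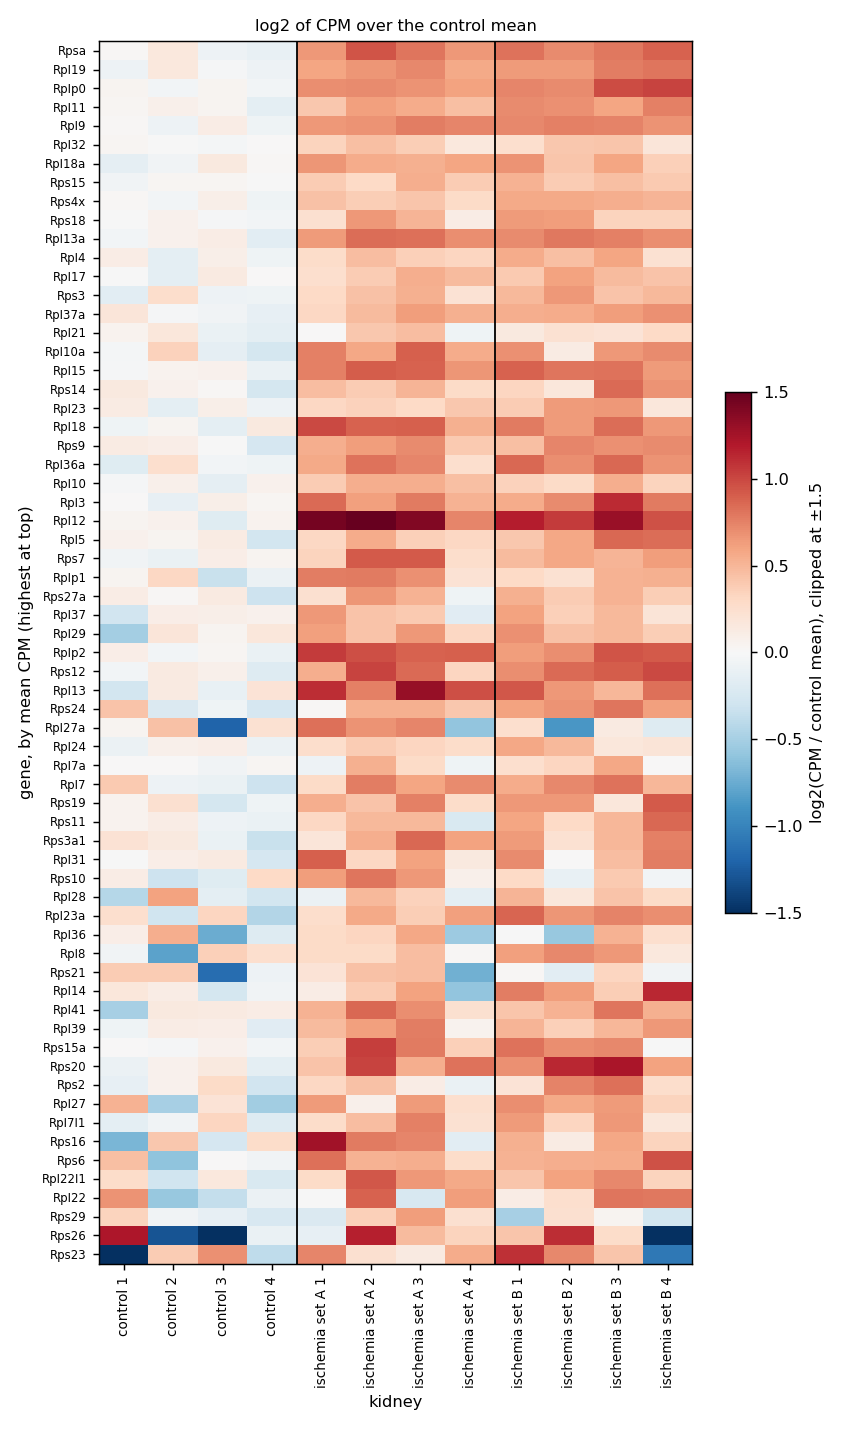
log2 of each kidney's CPM over the mean of the controls (colour, clipped at ±1.5) for 65 of the 68 members in order of mean CPM, with kidneys in columns by group. The ischemic columns are red for most members, replicate 4 of set A is paler than its neighbours (median 0.32), and the rows at the bottom, including Rps26 and Rps23, vary most within groups.

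Paralogs were compared with their partners as log2 ratios of counts, which do not depend on the scaling of the libraries. Of 8 pairs, 3 had enough counts. For Rpl22l1 over Rpl22, a paralog pair whose proteins influence each other's expression, the mean log2 ratio was 0.19 ± 0.41 (SD, n = 4) in the controls, 0.42 ± 0.42 for set A and 0.16 ± 0.37 for set B. For Rpl7l1 over Rpl7 it was -1.61 ± 0.40, -1.78 ± 0.29 and -1.83 ± 0.22. The exact permutation p-values (two-sided, n = 4 per group) were between 0.40 and 0.94 in these 6 comparisons. For Rpl36al over Rpl36a the log2 ratio was -4.19 ± 0.38 in the controls, -5.33 ± 0.32 for set A and -5.23 ± 0.61 for set B. The exact permutation p was 0.0286 for set A and 0.0571 for set B, and 0.257 for both after Benjamini-Hochberg adjustment over the 9 ratio tests. Rpl36a rose (0.58 ± 0.14 and 0.75 ± 0.14, edgeR adjusted p = 0.0037 and 0.00040), and Rpl36al had log2 fold changes of -0.57 ± 0.43 and -0.18 ± 0.43 (adjusted p = 0.42 and 0.86). Only 16.4% of the windows of Rpl36a were its own. Rpl7 rose by 0.58 and 0.64 on the log2 scale (edgeR adjusted p = 0.014 and 0.0076).

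Ribosomal protein genes with other symbols did not all follow. Gnb2l1, the older symbol of Rack1 of the small subunit, rose by 0.65 ± 0.12 and 0.75 ± 0.12 on the log2 scale (SE; edgeR adjusted p = 0.00032 and 7.4e-05). Fau, the precursor of a 40S protein, had -0.07 ± 0.19 and -0.43 ± 0.19 (adjusted p = 0.89 and 0.12). Gnb2l1, Fau and Rpl36al were not counted among the members.

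Other mRNAs known for a TOP tract, which encode elongation and initiation factors and nucleolar proteins, moved both ways. Of 22 tested, 11 rose and 3 fell in set A, and 11 rose and 2 fell in set B, with medians of 0.44 and 0.43. Nucleolin Ncl (0.90 ± 0.14 and 1.0 ± 0.14), the histone chaperone Nap1l1 (0.98 ± 0.20 and 0.75 ± 0.20) and the importin Ipo5 (0.93 ± 0.15 and 0.89 ± 0.15) had the largest rises when the larger value of both sets is taken for each gene. The genes that fell, named after their values were seen, were Eif4a2, Eif4b and Eif3h in set A and Eif4a2 and Eef2 in set B. The RNA helicase Eif4a2 had -0.78 ± 0.12 and -0.93 ± 0.12. A list of translation initiation factors was taken by symbol, Eif and a digit. It also holds Eif4ebp1, an inhibitor of translation, and its relative Eif4ebp2, which return among the regulators below. Among its 51 genes with at least 10 CPM, 15 rose and 5 fell in set A. In set B 12 rose and 3 fell, and the medians were 0.35 and 0.29. Of the 10 mitochondrial ribosomal protein genes at this level, 0 were called in set A, with 0 at an unadjusted p below 0.05, and 1 rose in set B. Their median log2 fold changes were -0.19 and -0.26. The difference between these lists and the members was not tested.

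Of 17 regulators of TOP mRNAs and of the mTORC1 pathway, 2 rose and 3 fell in each set, and medians were -0.11 and 0.003. Myc, a transcription factor that drives ribosome production, went from 4.93 ± 1.96 CPM (SD, n = 4) to 58.5 ± 7.38 for set A and 50.4 ± 10.5 for set B, log2 fold changes of 3.56 ± 0.29 and 3.35 ± 0.29 (edgeR adjusted p = 2.0e-08 and 4.2e-08). Eif4ebp1, an inhibitor of cap-dependent translation that mTORC1 phosphorylates, rose by 3.48 ± 0.61 and 2.79 ± 0.59 on the log2 scale, and its relative Eif4ebp2 had -1.40 ± 0.40 and -2.07 ± 0.41. Mtor fell in both sets (-1.37 ± 0.16 and -1.31 ± 0.16), as did the Myc antagonist Mxi1 (-0.90 ± 0.18 and -1.10 ± 0.18). Mtor and Mxi1 were named after their values were seen. Larp1 had 0.24 ± 0.12 and 0.22 ± 0.12 and missed the threshold in both sets (adjusted p = 0.19 and 0.22).

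Chaperones and importers of ribosomal proteins numbered 12, of which 5 rose and 1 fell in set A and 4 rose and 0 fell in set B. The unadjusted p was below 0.05 for 6 and 8 of them. The importins Kpnb1 (1.06 ± 0.11 and 1.08 ± 0.11) and Ipo7 (1.03 ± 0.17 and 0.82 ± 0.17) were among those that rose in both sets and were named after their values were seen. Taking the larger change of both sets for each gene, the largest fitted changes belonged to Grwd1, Pdcd2 and Pdcd2l, which had means below 10 CPM and passed in neither set; Pdcd2l was at 0 in all of set B. Of 14 genes of ribosome quality control and hibernation, 3 rose and 1 fell in set A, and 1 rose and 0 fell in set B. Gtpbp2, a ribosome rescue factor, rose in both (0.72 ± 0.18 and 0.81 ± 0.18), and Ltn1, the ligase for stalled chains, fell in set A (-1.23 ± 0.42, adjusted p = 0.038). Among 7 genes of the ribosomal protein to p53 axis, 0 were called in set A, with 1 at an unadjusted p below 0.05, and 1 rose in set B. That gene was Cdkn1a, which had no count in the controls and ranged from 0 to 2.02 CPM in set A and from 0 to 5.46 CPM in set B.

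Markers of some kidney cell types also moved with ischemia. The summed CPM of 7 kidney epithelium markers ranged from 7592 to 8486 in the controls, 1526 to 1877 in set A, and in the kidneys of set B 1622 to 2100.4. The 3 markers that fell were Slc34a1 and Lrp2 of the proximal tubule and Slc12a1 of the thick ascending limb, and Slc34a1 went from 4866 ± 309 CPM (SD, n = 4) to 424 ± 161 and 427 ± 205. Umod, Slc12a3 and Aqp2 passed in neither set. In whole-kidney RNA, fewer cells of a type and less RNA per cell cannot be told apart. Of 8 T and B cell markers, 6 were at 0 in all controls, 8 for set A and 7 for set B, and their sum was at most 4.70 CPM in any kidney. Cd3e, the marker that was tested, fell. The 7 myeloid markers summed to 3.04 to 7.95 CPM in the controls, 1.48 to 8.57 in set A, and in the kidneys of set B 2.67 to 15.8, with S100a8 at 0 in every kidney. The 4 red blood cell markers summed to at most 5.37 CPM, with Hba-a1 and Hba-a2 at 0 throughout, and Alas2 fell in set B. As for the ribosomal protein genes listed at 0, zeros of immune and blood cell markers cannot be read as absence of the mRNA or the cells. The 5 proliferation genes summed to 10.2 to 13.0 CPM in the controls, 25.7 to 32.0 in set A, and in the kidneys of set B 30.4 to 41.8, and Top2a made up most of each sum. Top2a rose in both sets. Cdk1, which had no count in the controls, also passed in both (edgeR adjusted p = 0.034 and 0.049) but had few counts. It ranged from 0.416 to 3.33 CPM in set A and from 0 to 2.98 CPM in set B. Pcna passed in neither set, Ccnb1 was at 0 in every ischemic kidney, and Mki67 was not tested. Their part in the rise of the ribosomal protein genes was not tested.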

How the data were processed

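Stranded mRNA libraries of 12 mouse kidneys (700 ng of total RNA each) were sequenced as single reads. The authors mapped reads to mm10 with STAR, counted them with HTSeq and deposited raw counts of 23420 genes without normalization. Versions, annotation and the rule for reads that map to several places are not given in the sources used here. CPM used the counted totals. The filter of edgeR 4.0.16 (minimum count 10, minimum total 15) in R 4.3.3 left 11664 genes. TMM scaling and a quasi-likelihood fit of all 12 kidneys with 3 group coefficients gave the 3 comparisons, adjusted by Benjamini-Hochberg. A count of 3 corresponds to 0.0670 to 0.195 CPM. Lengths and windows came from GENCODE vM21, and promoters from RefSeq. Python 3.11.15, pandas 2.3.3, SciPy 1.17.1 and matplotlib 3.10.9 were used, with DESeq2 1.42.0 and limma 3.58.1 as alternatives. The procedure was tested on simulated data. No pair of replicates within a group differed by as little as sampling noise.

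The members and gene lists were chosen with earlier results of these data known. Members named were the 4 largest rises per set, the 3 smallest p of set B against set A, 3 paralog pairs, 12 genes with known roles, the genes next to the threshold and the 3 most and least abundant per length, and from each list at most 3 genes with the largest change. Alternatives were other scalings, filters, tests, the replicate number as a block and leaving out each kidney. Some genes that this rule or a list names are not reported here.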

Additional observations from a re-analysis of the deposited data

Results flagged for a closer look

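Among 93 groups of 4 kidneys tested for the named members, the shares and the ratios, 2 held a kidney that stood apart from the others by more than Dixon's critical share of the group's range, and chance flags about 1 in 20 such groups. Rpl12 read 108 CPM in replicate 3 of the controls, against 125 to 128 in the other controls. Rps6 read 38.7 CPM in replicate 4 of set B, against 28.6 to 29.2 in the others. Replicate 4 of set B has the smallest library of the series, with 15367342 counts.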

How the results depend on the processing

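The counts of members that rose stayed within 1.5 times of the reported values in all 22 alternatives, from 27 (without replicate 3 of set A) to 43 (upper-quartile factors) in set A and from 34 (without control replicate 3) to 49 (upper-quartile factors) in set B, with 0 lower throughout. In set A 25 of the 36 calls and in set B 30 of the 42 held in every alternative, and none of the called members changed sign. No member changed sign against control under another scaling. The median change in set A lay between 0.45 and 0.55. In set B, where the kidneys differed little, the median moved from 0.52 to 0.56 with DESeq2, 0.56 with RLE size factors, 0.60 with upper-quartile factors and 0.55 with the stricter filter, and between 0.49 and 0.55 when a kidney was left out. For set B against set A it lay between 0.016 and 0.074 when a kidney was left out, with 0 members called in any alternative; the cause was not tested.

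Leaving out a kidney in turn ended the calls not kept in every alternative. Of the genes named, these were in set A Rpl7 (without control replicate 4, log2 fold change 0.50, edgeR adjusted p = 0.059), Rps20 (without control replicates 1 or 4 or set A replicates 2 or 4, adjusted p 0.060 to 0.081), Rpl32 (any control, set A replicates 2 or 3, set B replicates 1 or 3, up to 0.095), Rps3 (control replicates 1, 3 or 4, set A replicates 2 to 4, set B replicates 1 to 3, up to 0.13), Rps15a (any control, set A replicates 2 or 3, set B replicates 1 to 3, up to 0.16) and Rps19 (control replicates 1, 3 or 4, set A replicates 1 to 3, set B replicates 1 or 2, up to 0.16). In set B they were Rps19 (without control replicate 3, 0.51, adjusted p = 0.064), Rpl10 (without control replicates 1 or 3 or set B replicates 1 to 3, log2 fold change 0.29 to 0.35), Rpl14 (control replicates 2 to 4, set B replicates 1, 2 or 4, adjusted p up to 0.095), and Rpl32 and Rps27a (any control, set A replicate 3 or set B replicates 1 to 3, adjusted p up to 0.17 and 0.18). Without the low-count filter the counts were 30 for set A and 38 for set B, and among the genes named the calls of Rpl32 (both sets), Rps3, Rps15a and Rps19 in set A and Rpl10 and Rps27a in set B were lost.

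With the replicate number as a block 31 members rose in set A, 39 in set B and 0 differed between the sets, and among the genes named the calls of Rps15a and Rps19 in set A and Rpl32 in set B were lost. The correlation of deviations of kidneys with the same number ran from -0.055 to 0.045, so the numbers were not taken as pairs. The table holds 0 genes with symbols beginning mt-, so that alternative was not run. Taking the counts in tested genes as the denominator gave shares of 2.04%, 3.0% and 3.10%. The windows of 5 and 20 bases for the tract were chosen after seeing the data. Of the 25 members below 100 CPM, 18 were called in neither set, and the part of depth in this was not tested.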

Other observations

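Rpl27a, Rps21 and Rpl36, chosen after their values were seen, were low together in some kidneys. In replicate 3 of the controls they read 43.7, 21.3 and 31.1 CPM, against 104 to 136, 44.6 to 61.5 and 45.3 to 75.6 CPM in the other controls. In replicate 4 of set A they read 66.9, 28.5 and 35.4 CPM, against 160.0 to 177, 54.3 to 64.9 and 63.2 to 77.6 CPM in the others. In set B they were lowest in replicate 2, with 54.8, 42.2 and 35.1 CPM. None of the 3 passed the threshold in either set.

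Rps25, outside the members, rested on few counts in some kidneys, 12 in replicate 1 of the controls and 5 in replicate 4 of set B. It read 0.589, 4.19, 5.34 and 1.74 CPM in the controls and 0.325 to 10.6 CPM in set B.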
